A study of Mus musculus with 18 samples.

Results

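The soleus of FC mice was set against the soleus of BG mice, which asks what the flight habitat did to the muscle on the ground, without flight. The comparison used the 3 FC and the 3 BG soleus arrays among the 18 arrays of the Bion-M1 series, chosen by their titles, and took the log2 difference of the group means (FC minus BG) for each probe set. FC mice lived for 30 days in the standard animal facility and ate standard chow. BG mice were kept for 30 days in a ground copy of the satellite's housing and ate the paste food made for the flight. The paper states that FC mice were housed while the flight lasted and gives no dates for BG mice. Both groups were adult C57BL/N6 males of 19 to 20 weeks with no transgene, and they differed in cage and in food together, so that these cannot be told apart. BF mice, which flew, gave another 3 soleus arrays, and the extensor digitorum longus (EDL), a fast dorsiflexor, was measured in 3 arrays of each group. RNA was labelled by a 3′ in vitro transcription kit and hybridised to Affymetrix mouse arrays. Each array was 1 muscle sample, and the labels did not say whether a soleus and an EDL with the same number came from 1 mouse. All levels are log2 signals after robust multichip averaging (RMA), so that a difference of 1 is 2-fold, and values of 3 arrays are listed in the order of the replicate numbers.

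The soleus is a slow postural muscle of the calf that is active whenever the animal stands. Muscle fibres hold an endoplasmic reticulum (ER) whose chaperones and disulphide isomerases fold secreted and membrane proteins, and cells raise these enzymes together in the unfolded protein response when folding demand grows. Muscle also keeps a circadian clock, in which ARNTL and CLOCK drive the Per, Cry and D-box factor genes that feed back on them, and it switches between fat and glucose according to feeding through enzymes such as PDK4.

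The 6 arrays carried the transcripts of soleus. Myh7, the slow myosin heavy chain, stood at 13.93, 13.92 and 13.87 in FC soleus and at 13.78, 13.74 and 13.72 in BG soleus. Array pairs within a group correlated at 0.9923 to 0.995 (FC) and 0.9931 to 0.9952 (BG) over all probe sets, and pairs across the groups at 0.9829 to 0.9891. In the control probe sets of Gapdh and Actb the FC soleus arrays stood apart from the other 15. The array carries control probe sets at the 3′ and the 5′ end of Gapdh and Actb, and a larger 3′ minus 5′ difference is what shorter or partly degraded RNA gives in this assay. The Gapdh difference was 0.680 ± 0.159 in FC soleus and 0.065 ± 0.031 in BG soleus (SD, n = 3 each), and that of Actb was 0.540 ± 0.050 in FC soleus and −0.019 ± 0.129 in BG soleus. The group means of the other 4 groups lay between 0.065 and 0.189 for Gapdh and between −0.026 and 0.219 for Actb. FC array 2 had the highest Gapdh difference, 0.864. The control pairs of pyruvate carboxylase (Pcx) and the transferrin receptor (Tfrc) did not set FC soleus apart. The Pcx difference averaged 2.314 in FC and 1.699 in BG soleus, and 2.745 in FC and 2.052 in BG EDL. That of Tfrc was −0.14, −0.355 and 0.20 in FC soleus and 0.05, −0.11 and −0.87 in BG soleus. When the mean of the Gapdh and Actb differences was put into the fit as a covariate, no probe set passed the adjusted p, the median standard error over genes was 0.355 on the log2 scale instead of 0.142, and 46 of the 77 genes called below kept their sign. The covariate and the FC soleus group are nearly the same variable in these arrays, so that housing and RNA quality cannot be told apart in any result below.

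**Figure D1:**
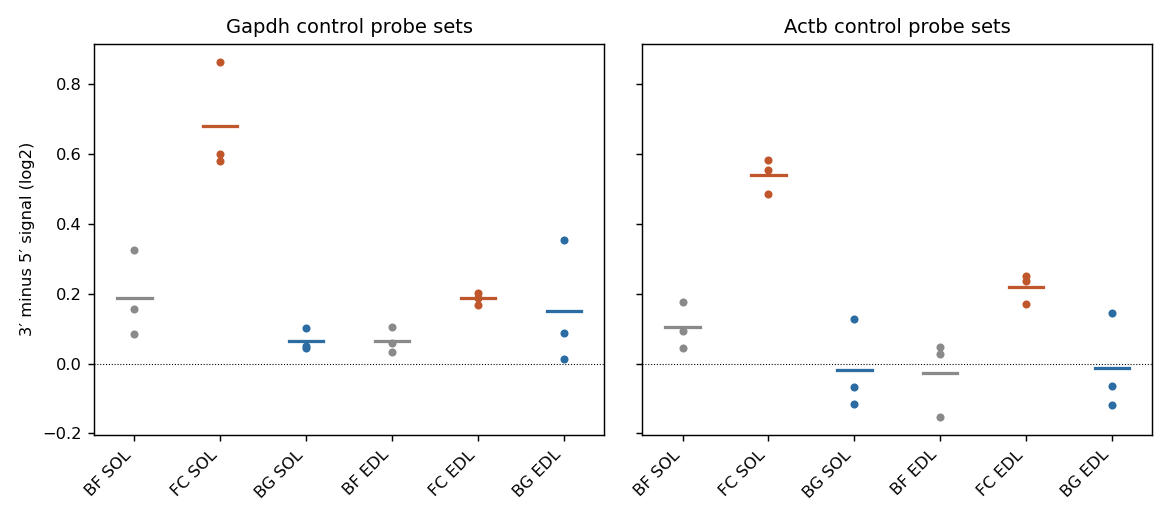
Difference between the 3′ and the 5′ control probe sets of Gapdh (left) and Actb (right) on the log2 scale, for each of the 18 arrays (points) with the group means (bars). The 3 FC soleus arrays lie above all other arrays in both panels, with means of 0.680 for Gapdh and 0.540 for Actb.

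A gene was read on its brightest probe set, and it was called at an adjusted p under 0.05 (limma over all 22626 probe sets, Benjamini-Hochberg) with a difference of over 2-fold. FC soleus had 41 genes called higher (0.331% of the 12393 genes) and 36 called lower (0.29%) than BG soleus. When every array was centred on its median, the split turned to 28 higher and 48 lower. Over all probe sets, 113 were called higher (0.499%) and 219 lower (0.968%). At the adjusted p alone, with no fold threshold, 716 genes were higher (5.78%) and 499 lower (4.03%), and the members of gene lists below were counted by that rule. The median difference over all genes was 0.055. Without FC array 2, 45 genes were called in place of 77, and leaving out any other of the 6 arrays gave 63 to 87. At the adjusted p alone, 320 genes passed without FC array 2, 443 without BG array 3 and 642 to 1019 without any other array, in place of 1215. Counts of list members in such fits, given below, are to be read beside these totals.

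ER chaperones and their folding partners were among the genes lower in FC soleus, that is, higher in mice kept in the flight habitat. Of 45 measured genes of the unfolded protein response and ER folding, 15 were lower in FC at the adjusted p (33.3%, against 4.03% of all genes) and none was higher. The list's median difference was −0.34. The 3 FC arrays lay below all 3 BG arrays in 20 of the 45 genes, against 13.7% of all genes. Manf, a secreted ER stress factor, had the largest difference of the list. Its signal was 8.57, 8.25 and 8.66 in FC soleus and 11.29, 9.15 and 10.57 in BG soleus, a difference of −1.84 ± 0.42 (SE, adjusted p = 0.011), or 3.58-fold lower in FC. The FC values were close together, while BG array 2 was well under the other BG arrays and still above every FC array. Hsp90b1 encodes GRP94, the HSP90 chaperone of the ER lumen. It stood at 9.57, 9.52 and 9.82 in FC soleus and at 11.07, 10.59 and 11.25 in BG soleus, with no overlap and a difference of −1.34 ± 0.24 (adjusted p = 0.0026). A second Hsp90b1 probe set gave −1.21.

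Disulphide isomerases were lower too. Pdia3, which works with the lectin chaperones on glycoproteins, had 8.58, 8.78 and 8.73 in FC soleus and 10.59, 9.50 and 10.03 in BG soleus (−1.34 ± 0.29, adjusted p = 0.008). Pdia4 had 7.12, 7.04 and 7.25 in FC soleus and 8.96, 7.70 and 8.21 in BG soleus (−1.15 ± 0.22, adjusted p = 0.0038). In both genes the BG arrays kept the order seen for Manf, with array 1 highest and array 2 lowest. Creld2, an ER-resident protein with isomerase activity, differed by −1.23, Sdf2l1, a partner of the luminal chaperone BiP, by −1.17, Pdia6 by −0.86 and Dnajb9, a co-chaperone of BiP, by −0.80, each past the adjusted p. The transcription factors of the response differed less: Xbp1, which the IRE1 branch activates by splicing, by −0.77 (adjusted p = 0.024) and Atf4, of the PERK branch, by −0.43 (adjusted p = 0.039).

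Other members did not pass on their brightest probe set. Hspa5, which encodes BiP itself, was 11.29, 11.00 and 11.00 in FC soleus and 12.39, 11.20 and 12.05 in BG soleus on its brightest probe set (−0.78 ± 0.30, adjusted p = 0.10), and −1.64 with an adjusted p of 0.0042 on its other. Calr, the lectin chaperone calreticulin, had a difference of −0.07 and Ddit3, the CHOP factor of prolonged ER stress, of −0.03, both with FC and BG arrays overlapping. The BF arrays, which share the paste food and habitat with BG, took no single place between the groups. Manf had 9.44, 10.24 and 8.33 in BF soleus, which overlaps both FC and BG, Hsp90b1 had 10.01, 10.52 and 9.47, below all BG arrays, and Pdia3 had 9.67, 10.45 and 8.83, above all FC arrays. Counts of this list fell when these arrays were left out, as did those of all genes. Without BG array 1, 4 of its members were lower at the adjusted p, without BG array 3, 5, without FC array 2, 4, and without FC array 3, 9. Over all genes, in either direction, 677, 443, 320 and 1019 passed in these 4 fits, in place of 1215. The median of the list stayed between −0.42 and −0.17 whichever array was left out. Pdia3, Hsp90b1 and Pdia4 passed whichever array was left out, and Manf and Dnajb9 did not without BG array 1, BG array 3 or FC array 2. Creld2 and Sdf2l1 passed in 1 of the 6 such fits and were −0.804 and −0.723 without BG array 1. Xbp1 passed in 3 of the 6 fits, and Pdia6 and Atf4 in 2. In EDL the list's median was −0.02, and Manf and Hsp90b1 differed there by −0.14 and 0.05. The 3′ minus 5′ difference of Gapdh and Actb also set FC apart from BG soleus. Its part in the result was not tested beyond the covariate, under which no member passed and the median was −0.38.

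**Figure D2:**
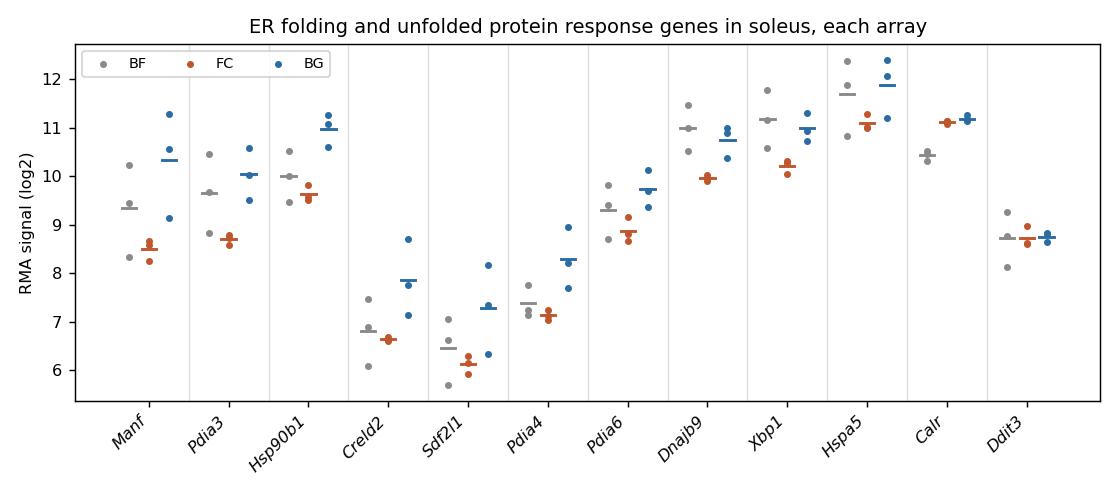
RMA signal (log2) of 12 genes of ER folding and the unfolded protein response in soleus, for each BF, FC and BG array (points) with the group mean (bar). The FC arrays lie together below the BG arrays for Manf to Dnajb9, BG is spread over up to about 2 log2 units, and Calr and Ddit3 overlap between FC and BG.

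Promoter letters are a feature that the comparison did not use. The ER stress response element, searched as CCAAT, 9 bases of any kind and CCACG on both strands of the RefSeq promoter windows (300 bases, 250 before and 50 after the start, GRCm38.p6), was found in 39 of 32851 windows (0.119%). It was found for 10 of the 37 ER folding genes that had a window (27%), namely Calr, Canx, Creld2, Derl3, Dnajc3, Ero1b, Hsp90b1, Hspa5, Pdia6 and Syvn1. Of these 10, 4 were lower in FC at the adjusted p, and of the 27 without the element 9 were. The match describes the letters of the window and says nothing of binding in these muscles. The windows of Hsp90b1, which has 2 matches, of Hspa5 and of Creld2 are shown 5′ to 3′ on the strand of the gene with the element in capitals. The Hsp90b1 window is on the minus strand at chr10:86705395-86705694, with matches at positions 39 to 57 and, on the other strand, 144 to 162 of the window. That of Hspa5 is on the plus strand at chr2:34771840-34772139, with the match at 186 to 204, and that of Creld2 on the plus strand at chr15:88819396-88819695, with the match on the other strand at 125 to 143.
Hsp90b1: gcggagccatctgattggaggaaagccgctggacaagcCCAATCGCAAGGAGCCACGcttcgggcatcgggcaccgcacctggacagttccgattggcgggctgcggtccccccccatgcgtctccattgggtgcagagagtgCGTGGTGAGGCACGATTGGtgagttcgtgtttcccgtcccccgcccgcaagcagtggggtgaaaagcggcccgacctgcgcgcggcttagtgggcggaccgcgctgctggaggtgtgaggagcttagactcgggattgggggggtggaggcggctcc
Hspa5: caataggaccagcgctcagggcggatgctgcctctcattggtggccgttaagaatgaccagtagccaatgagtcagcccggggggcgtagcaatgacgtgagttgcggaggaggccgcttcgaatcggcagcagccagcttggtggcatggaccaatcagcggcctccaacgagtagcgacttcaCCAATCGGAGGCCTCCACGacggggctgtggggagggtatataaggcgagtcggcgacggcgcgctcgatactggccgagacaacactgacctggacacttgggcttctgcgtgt
Creld2: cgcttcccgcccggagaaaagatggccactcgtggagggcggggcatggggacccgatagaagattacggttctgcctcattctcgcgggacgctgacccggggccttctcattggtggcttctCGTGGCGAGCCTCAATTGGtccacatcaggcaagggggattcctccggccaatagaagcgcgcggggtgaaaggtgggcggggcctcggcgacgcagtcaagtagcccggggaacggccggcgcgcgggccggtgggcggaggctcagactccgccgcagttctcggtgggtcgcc

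Some proteasome genes were also lower in FC soleus. Of 43 measured subunits and assembly factors, 11 were lower at the adjusted p (25.6%, against 4.03% of all genes) and none was higher. The FC arrays lay below all BG arrays in 23 of the 43, against 13.7% of all genes. The median difference was −0.27, −0.14 when the 6 arrays were quantile-normalised alone and −0.029 with the 3′ minus 5′ covariate. Psmg2, a chaperone that assembles the catalytic core, stood at 8.01, 7.44 and 8.18 in FC soleus and at 8.98, 9.46 and 9.34 in BG soleus (−1.39 ± 0.24, adjusted p = 0.0022). Psmd8, a subunit of the regulatory lid, had 10.67, 10.27 and 10.67 in FC soleus and 11.64, 11.66 and 11.39 in BG soleus (−1.03 ± 0.14, adjusted p = 8.2e-04). Unlike the ER genes, the BG arrays were close together here. Psmd7, another lid subunit, differed by −0.91, Psma1, of the outer ring of the core, by −0.80, and Psmd10, Psmd6, Psma7 and Psmc6 by −0.66 to −0.46. The catalytic subunit Psmb5 differed by −0.19 (adjusted p = 0.26), and Psmd1 and Psmd11, scaffold subunits of the regulatory particle, by −0.09 and −0.10. Other probe sets of Psmd7 and Psma1 did not follow the brightest: those of Psmd7 gave 0.45, past the adjusted p, and 0.20, and those of Psma1 −0.08 and 0.14. Without FC array 2 the list had 4 members past the adjusted p, without BG array 2 or BG array 3, 5, and without FC array 1, 6. In EDL its median was 0.02. At an unadjusted p of 0.05 none was lower there, against 5.33% of all genes, and 2 were higher, against 5.74%.

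A few heat shock proteins were lower as well. Of 37 heat shock proteins and co-chaperones, 4 were lower in FC at the adjusted p (10.8%, against 4.03% of all genes) and none higher. The FC arrays lay below all BG arrays in 18 of the 37, against 13.7% of all genes. The median was −0.24, −0.13 when the 6 arrays were quantile-normalised alone and −0.11 with the covariate. Dnaja2, an HSP40 that hands clients to HSC70, had 8.76, 8.63 and 8.81 in FC soleus and 9.80, 9.75 and 9.55 in BG soleus (−0.97 ± 0.11, adjusted p = 2.8e-04). The chaperonin subunit Cct8 differed by −0.68, the immunophilin Fkbp4 by −0.42 and the mitochondrial Hspa9 by −0.41. The stress-inducible Hspa1a had 9.67, 9.56 and 9.99 in FC soleus and 10.84, 10.01 and 10.22 in BG soleus (adjusted p = 0.67). Without BG array 1 or without FC array 2, 1 member passed, and without BG array 2, BG array 3 or FC array 1, 2 did.

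**Figure D3:**
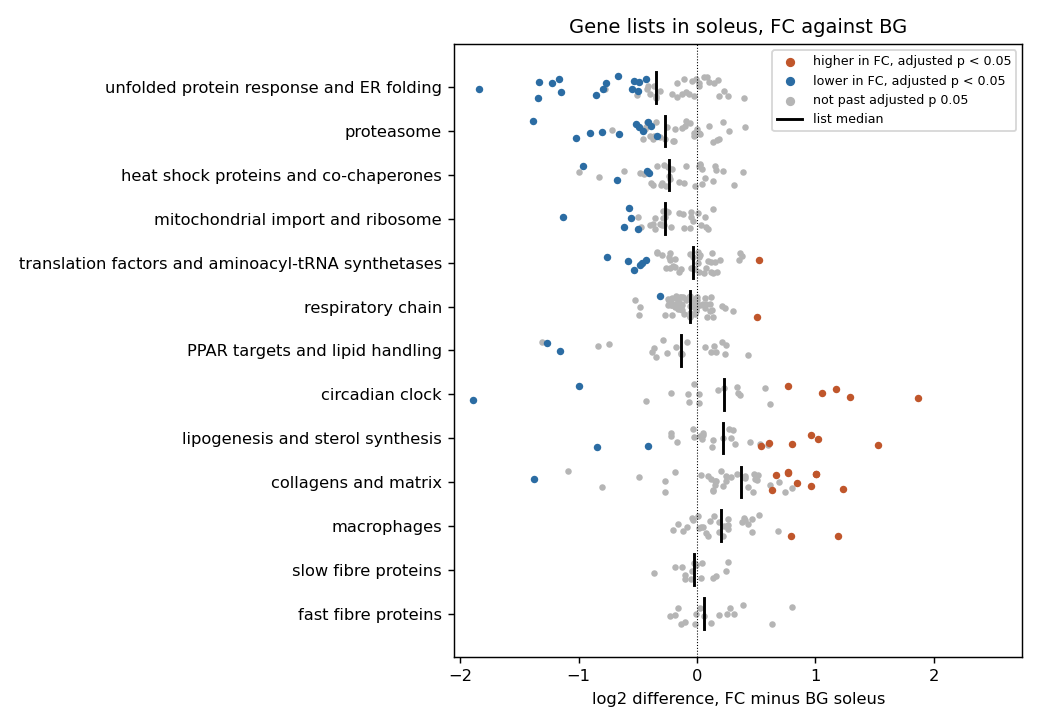
Log2 difference (FC minus BG soleus) of each measured gene of 13 lists, with genes past the adjusted p coloured by direction and the list median as a bar. ER folding (15 of 45) and proteasome (11 of 43) have members past the adjusted p on the lower side alone, collagens and matrix mostly on the higher side, and the fibre-type lists have none.

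The clock genes differed in opposite directions. Of 21 measured, 5 were higher (23.8%, against 5.78% of all genes) and 2 lower (9.52%, against 4.03%) in FC soleus. Arntl (BMAL1), the activating partner of CLOCK, was at 6.18, 5.57 and 6.06 in FC soleus and at 8.81, 7.22 and 7.47 in BG soleus, a difference of −1.90 ± 0.33 (adjusted p = 0.0023), the lowest of all called genes. Clock itself had 7.47, 7.45 and 7.62 in FC soleus and 8.35, 8.74 and 8.45 in BG soleus (−0.998 ± 0.15, adjusted p = 0.0012), although its other probe set gave −0.02. Higher in FC were Dbp and Hlf, whose proteins bind the D-box, an element described further on. Dbp stood at 9.51, 10.19 and 10.06 in FC soleus and at 6.58, 9.26 and 8.33 in BG soleus (1.87 ± 0.51, adjusted p = 0.028), with BG array 1 far under the other BG arrays, and Hlf at 7.50, 8.13 and 7.85 in FC soleus and 6.36, 6.45 and 6.79 in BG soleus (1.30 ± 0.19, adjusted p = 0.0011). BG array 1 was thus the lowest in Dbp and the highest in Arntl.

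Per2 and Per3, period genes whose proteins repress ARNTL and CLOCK, were higher in FC as well. Per2 had 7.23, 7.57 and 7.65 in FC soleus and 5.97, 6.64 and 6.67 in BG soleus (1.05 ± 0.23, adjusted p = 0.0088), and Per3 had 7.43, 7.93 and 7.71 in FC soleus and 6.04, 6.95 and 6.58 in BG soleus (1.17 ± 0.31, adjusted p = 0.024). Csnk1d, the kinase that marks PER proteins, differed by 0.77. Per1 (0.57, adjusted p = 0.25), the nuclear receptor Nr1d1 (−0.22, adjusted p = 0.77) and Cry1 (0.02, adjusted p = 0.97) did not pass. In BF soleus, Dbp was lower still, at 6.30, 5.82 and 6.21, and Arntl was at 8.41, 8.87 and 8.20. The hour at which each muscle was taken is not given in the sources used here, and its part in these values was not tested. Without BG array 1 the difference of Dbp was 1.13. The adjusted p of Dbp and Per3 was not passed without BG array 1, BG array 3, FC array 2 or FC array 3, while Arntl, Clock, Hlf, Per2 and Csnk1d passed in every such fit. In EDL, Dbp was higher by 1.22, Hlf by 0.81 and Per2 by 0.63, and Arntl lower by 0.85, each at an unadjusted p under 0.05 and none after adjustment.

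**Figure D4:**
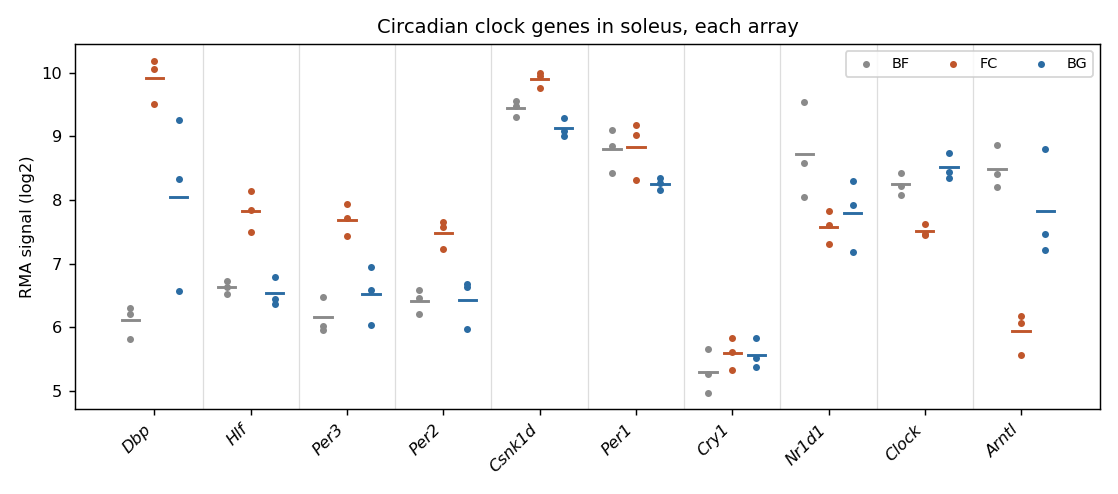
RMA signal (log2) of 10 clock genes in soleus, for each BF, FC and BG array (points) with the group mean (bar). FC lies above BG for Dbp, Hlf, Per3, Per2 and Csnk1d and below it for Clock and Arntl, with no overlap between the FC and BG arrays in these 7 genes.

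The D-box, searched as TTATGTAA on both strands, was in 308 of the 32851 promoter windows (0.938%) and in 1 of the 18 clock genes with a window, Per3, which holds it at positions 46 to 53 and 93 to 100. The E-box that ARNTL and CLOCK bind (CACGTG) was in 7.15% of windows and in those of Bhlhe41, Cry1, Per1 and Tef, and none of these 4 genes passed the adjusted p. The Per3 window (minus strand, chr4:151044616-151044915, GRCm38.p6) is given with its D-boxes in capitals.
Per3: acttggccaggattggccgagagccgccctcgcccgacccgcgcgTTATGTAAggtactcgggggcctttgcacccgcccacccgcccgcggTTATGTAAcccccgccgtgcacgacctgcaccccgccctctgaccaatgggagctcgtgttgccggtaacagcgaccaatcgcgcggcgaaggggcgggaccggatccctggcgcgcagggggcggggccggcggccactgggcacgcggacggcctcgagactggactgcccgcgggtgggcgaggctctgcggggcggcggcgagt

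Genes of fat synthesis differed in both directions. Of 27 genes of lipogenesis and sterol synthesis, 6 were higher (22.2%, against 5.78% of all genes) and 2 lower (7.41%, against 4.03%) in FC soleus. Mid1ip1, which activates acetyl-CoA carboxylase, stood at 11.09, 10.95 and 11.20 in FC soleus and at 9.33, 9.78 and 9.55 in BG soleus (1.53 ± 0.24, adjusted p = 0.0013), and in EDL the difference was 1.55. Fasn, the fatty acid synthase, had 7.70, 8.10 and 8.08 in FC soleus and 6.98, 6.55 and 7.28 in BG soleus (1.02 ± 0.32, adjusted p = 0.046), and did not pass without any 1 of the 6 arrays. The sterol enzymes Mvd, Fdft1 and Dhcr7 were higher by 0.97, 0.80 and 0.54, and the elongase Elovl5 by 0.61. Against these, Fdps, the farnesyl diphosphate synthase, was lower by 0.85 and Sc5d by 0.41, so that the sterol pathway did not move as a block. Scd1, the main desaturase, was 10.39, 10.60 and 10.52 in FC soleus and 11.08, 9.90 and 11.04 in BG soleus and did not pass. Leaving out any 1 of the 6 arrays left 3 or 4 members higher at the adjusted p and 1 lower. Elovl5 passed in none of these 6 fits and Sc5d in 1. In EDL, 8 of the 27 were higher at an unadjusted p of 0.05, against 5.74% of all genes there, and none was lower, against 5.33%.

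Of the targets of the fatty acid receptors PPARα and PPARδ, Pdk4 and Acot2 were lower in FC soleus. Pdk4, the kinase that inhibits pyruvate dehydrogenase in the mitochondrion, was 11.80, 12.10 and 12.22 in FC soleus and 13.06, 13.39 and 13.48 in BG soleus (−1.27 ± 0.18, adjusted p = 8.7e-04), or 2.41-fold lower. Acot2, a mitochondrial thioesterase, had 6.39, 6.54 and 6.27 in FC soleus and 7.16, 8.24 and 7.29 in BG soleus (−1.16 ± 0.30, adjusted p = 0.021), and lost its call without BG array 2 or any 1 of the FC arrays. These were the only 2 of 23 measured members past the adjusted p (8.7% lower, against 4.03% of all genes). Angptl4, an inhibitor of lipoprotein lipase, differed by −1.31 (adjusted p = 0.069) and the uncoupling protein Ucp3 by −0.84 (adjusted p = 0.11), with no overlap of the arrays for Angptl4. In EDL, 8 of the 23 were lower at an unadjusted p of 0.05, against 5.33% of all genes there, and none higher, against 5.74%. Acot2 differed in EDL by −1.21, Pdk4 by −0.85, Angptl4 by −1.30 and Ucp3 by −1.53. Of 25 fatty acid oxidation genes, 2 were lower (8.0%, against 4.03% of all genes), the hydratase Echs1 by 0.95 and Etfa by 0.45.

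The matrix genes that passed the test were mostly higher in FC soleus. Of 42 collagens and matrix genes, 9 were higher (21.4%, against 5.78% of all genes) and 1 was lower (2.38%, against 4.03%) at the adjusted p. The median difference was 0.37 (0.24 with the 3′ minus 5′ covariate), and the FC arrays lay above all BG arrays in 23, against 21.9% of all genes. Tgfbi, a collagen-binding protein induced by TGF-β, had 8.82, 8.85 and 9.50 in FC soleus and 7.73, 7.96 and 7.78 in BG soleus (1.23 ± 0.32, adjusted p = 0.02). Col5a1 had 7.68, 7.92 and 8.05 in FC soleus and 6.78, 6.78 and 7.06 in BG soleus (1.01 ± 0.22, adjusted p = 0.0085), and Col6a1, of the collagen of the pericellular matrix, 9.84, 10.11 and 10.11 in FC soleus and 8.96, 9.02 and 9.08 in BG soleus (1.002 ± 0.26, adjusted p = 0.022). Timp2, an inhibitor of matrix proteases, was higher by 0.96, Mmp2, a protease it binds, by 0.85, and Col6a2 and Eln by 0.77 each. The fibrillar collagens Col1a1 (0.81, adjusted p = 0.32) and Col3a1 (0.41, adjusted p = 0.51) did not pass. The 1 lower member was Thbs1, a matricellular protein that activates TGF-β, at 6.24, 6.35 and 6.13 in FC soleus and 8.53, 7.55 and 6.77 in BG soleus (−1.38 ± 0.37, adjusted p = 0.025), which passed in 1 of the 6 fits that leave out an array and was −0.916 without BG array 1. Without FC array 2, 2 members of the list were higher at the adjusted p, and 4 to 6 without any other array. Of the higher genes, Col5a1 and Timp2 passed in all 6 such fits, Eln in 5, Tgfbi in 2, Col6a1 and Col6a2 in 1 each and Mmp2 in none. Markers of tendon and cartilage, which lies next to muscle in a dissection, had none of 16 past the adjusted p, and their mean over the list was 6.95, 7.62 and 7.13 in FC soleus and 7.39, 6.92 and 7.05 in BG soleus.

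Of markers of the cells that lie between the fibres, 2 of 32 macrophage markers were higher in FC at the adjusted p (6.25%), a share near the 5.78% of all genes. In a whole muscle, fewer cells of a type and less RNA per cell cannot be told apart. Csf1r, the receptor for the growth factor of macrophages, stood at 9.26, 9.63 and 9.73 in FC soleus and at 8.45, 8.41 and 8.18 in BG soleus (1.19 ± 0.22, adjusted p = 0.0029), and its other probe sets gave 0.82 and 0.46. Laptm5, a lysosomal protein of blood cells, was higher by 0.79. No other marker of the 32 passed, and the mean over the list was 6.41, 6.40 and 6.53 in FC soleus and 6.30, 6.18 and 6.16 in BG soleus. The defining markers Cd68 (−0.04), Adgre1 (0.26), Mrc1 (0.19) and Cd163 (0.38) did not pass. Csf1, the ligand of CSF1R, was higher by 0.64 (adjusted p = 0.031). Grn, a growth factor processed in lysosomes, had 9.92, 9.94 and 9.83 in FC soleus and 9.01, 9.04 and 8.98 in BG soleus (0.89 ± 0.17, adjusted p = 0.0035). The class II gene H2-Ab1 was higher by 0.95 (adjusted p = 0.036), while its partners H2-Aa (0.88, adjusted p = 0.18), Cd74 (0.65, adjusted p = 0.14) and H2-Eb1 (0.65, adjusted p = 0.087) did not pass. H2-Ab1 passed in none of the 6 fits that leave out 1 array, and Csf1 in 2.

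Of 25 interferon-responsive genes, 4 were higher in FC at the adjusted p (16%, against 5.78% of all genes) and 1 was lower (4.0%, against 4.03%). Of the differences 21 were positive, and their median was 0.17. The FC arrays lay above all BG arrays in 9 of the 25, against 21.9% of all genes. The 4 were Iigp1, Rsad2, Igtp and Parp14, by 0.84, 0.66, 0.63 and 0.57, and none of them passed in all of the fits that leave out 1 array. Without FC array 1 none of them passed, and without BG array 1 the difference of Iigp1 was 0.523. The lower gene was Gbp6, a GTPase of the guanylate-binding family, at 7.86, 7.64 and 7.84 in FC soleus and 9.43, 9.09 and 9.68 in BG soleus (−1.62 ± 0.32, adjusted p = 0.0045), with BF at 7.73, 8.58 and 7.42. Gene copies of this family lie close in sequence, and the probes may read more than 1 of them. Endothelial markers had 1 higher (Vwf, the carrier of factor VIII, by 0.92) and 1 lower (Emcn, a surface sialomucin, by 0.81) of 31. Each is 3.23% of the list, under the 5.78% higher and 4.03% lower of all genes. Vwf did not pass without BG array 2, BG array 3 or FC array 1, and Emcn did not without BG array 2, BG array 3 or FC array 2, with −0.479 in the last. Smooth muscle and pericyte markers had Notch3 higher by 0.98, Lmod1 by 0.61, and Abcc9 lower by 0.51, of 16 (12.5% higher and 6.25% lower). None of 12 neutrophil, 8 red blood cell or 18 adipocyte markers passed. Adipoq, the adipocyte hormone, had 9.79, 9.98 and 9.81 in FC soleus and 8.53, 8.81 and 9.05 in BG soleus (1.06, adjusted p = 0.12), and differed by 2.25 in EDL.

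The largest differences of all lay in genes outside these lists. Lncpint, a long non-coding RNA, had 6.94, 8.07 and 7.42 in FC soleus and 4.69, 5.67 and 4.30 in BG soleus (2.59 ± 0.60, adjusted p = 0.011), or 6.01-fold, and Gdap10 had 7.74, 8.33 and 8.001 in FC soleus and 5.39, 6.29 and 5.37 in BG soleus (2.34 ± 0.47, adjusted p = 0.0056). In both, array 2 was the highest of its group, and Lncpint did not pass without FC array 2 or BG array 3. Inmt, a methyltransferase of tryptamines, stood at 10.14, 9.90 and 10.46 in FC soleus and at 7.49, 8.79 and 8.12 in BG soleus (2.03 ± 0.34, adjusted p = 0.0019), with BF near FC at 9.39, 9.76 and 10.31. G0s2, an inhibitor of the triglyceride lipase ATGL, had 9.67, 9.12 and 9.75 in FC soleus and 7.51, 7.78 and 8.81 in BG soleus (1.48 ± 0.39, adjusted p = 0.022). Camkk2, a kinase upstream of AMPK, differed by 1.39 with very close replicates, at 6.66, 6.46 and 6.61 in FC soleus and 5.16, 5.15 and 5.23 in BG soleus, but its other probe sets gave 0.33 and −0.23. Scara3, a scavenger receptor, was higher by 1.39, the homeobox gene Hoxc8 by 1.31, the diacylglycerol kinase Dgkz by 1.27, and Wdfy3, a scaffold of selective autophagy, Phxr4 and the secreted C1qtnf3 by 1.24 each. Gdap10, Inmt, Camkk2, Scara3, Hoxc8, Wdfy3 and Phxr4 passed whichever array was left out, Dgkz in 3 of the 6 fits, G0s2 in 2 and C1qtnf3 in 1, with a difference of 0.751 without FC array 3. Of 28 genes of insulin and IGF signalling, a further list, 2 were higher (7.14%) and 1 lower (3.57%), near the 5.78% and 4.03% of all genes. Igfbp4, which binds IGFs, was higher by 1.05 and Socs2, which damps growth hormone signalling, by 0.79, while Igf1 itself (0.70, adjusted p = 0.16) did not pass.

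Among lower genes not named so far, Tnfrsf12a, the TWEAK receptor FN14 that muscle makes when it is injured or unused, had 10.15, 9.54 and 9.74 in FC soleus and 11.75, 11.10 and 11.11 in BG soleus (−1.51 ± 0.39, adjusted p = 0.021). Its other probe set gave −1.67, BF soleus was higher than both at 12.59, 13.05 and 12.23, and the call was lost without BG array 1 or FC array 2. Net1, an exchange factor for RhoA, stood at 5.88, 5.76 and 6.21 in FC soleus and at 7.31, 7.03 and 7.09 in BG soleus (−1.20 ± 0.27, adjusted p = 0.011), with BF again above both at 8.05, 7.46 and 8.41. Epm2a, the glycogen phosphatase laforin, was lower by 1.20, the zinc finger gene Zfp617 and the ATPase Ola1 by 1.25 each, and Ercc8, of transcription-coupled repair, by 1.28. For Ola1 and Ercc8 the other probe sets did not share the fall: those of Ola1 gave 0.05, 0.22 and, past the adjusted p, 0.70, and those of Ercc8 −0.30, 0.26 and −0.02.

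The contractile proteins, which set the type of a fibre, gave no call on the brightest probe sets that name 1 gene. None of 16 slow fibre and none of 17 fast fibre genes passed the adjusted p there, with medians of −0.02 and 0.06, the first of which turns positive when the 6 arrays are quantile-normalised alone (0.012) or the 3′ minus 5′ covariate is added (0.68), and the second negative when arrays are centred on their medians (−0.0041) or with that covariate (−0.018). Dimmer probe sets did pass for the tropomyosins Tpm3 (−0.65, adjusted p = 0.035) and Tpm1 (1.497, adjusted p = 0.035), both named after their values were seen, and so did a probe set that reads Myh7 and Myh6, the slow and the cardiac myosin heavy chain, together. It had 4.06, 4.21 and 4.19 in FC soleus and 6.36, 6.30 and 6.41 in BG soleus (−2.20 ± 0.17, adjusted p = 4.8e-06), with BF at 3.87, 4.65 and 4.48. A brighter probe set of the same pair had 13.51, 13.63 and 13.58 in FC soleus and 13.57, 13.46 and 13.40 in BG soleus (0.10), and Myh7 alone differed by 0.16. The slow troponin Tnni1 differed by −0.04 and the fast Tnni2 by −0.16. Myh4, the myosin of the fastest fibres, varied widely within both groups, at 8.02, 10.96 and 10.32 in FC soleus and 7.68, 12.15 and 8.71 in BG soleus (0.26 ± 0.79, adjusted p = 0.88), and the fast α-actinin Actn3 followed the same arrays. The interval of such a difference is too wide to show that the groups are alike. The ubiquitin ligase of atrophy Fbxo32 was 11.16, 10.95 and 10.94 in FC soleus and 10.48, 11.11 and 10.49 in BG soleus, and 1 of 21 genes of its list was higher (the protease Capn1) and 1 lower (Ctsl). Each is 4.76% of the list, near the 5.78% higher and 4.03% lower of all genes. Of calcium-handling genes, 3 of 24 were lower (12.5%, against 4.03% of all genes): Pln, the brake on the slow calcium pump, at 7.84, 8.13 and 7.48 in FC soleus and 8.45, 8.61 and 8.65 in BG soleus (−0.75 ± 0.18, adjusted p = 0.015), Jph1 of the triad junction by 0.69, and Asph by 0.52.

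Few mitochondrial genes passed the test. Of 33 genes of import and the mitochondrial ribosome, 5 were lower in FC (15.2%, against 4.03% of all genes) and none higher. The median was −0.27, −0.15 when the 6 arrays were quantile-normalised alone and, with the sign turned, 0.17 with the 3′ minus 5′ covariate. All 5 were translocase parts: Timm9 at 5.50, 5.65 and 6.05 in FC soleus and 7.02, 6.76 and 6.83 in BG soleus (−1.13 ± 0.22, adjusted p = 0.0047), and Tomm70a, Timm10, Tomm22 and Timm17a by 0.62 to 0.50. Without FC array 2, 1 of them passed, without FC array 3, 4, and without any other array, 3. In the respiratory chain, 1 of 60 genes was higher (Atp5d) and 1 lower (Ndufab1), 1.67% each and under the 5.78% and 4.03% of all genes. Of the 60 differences 44 were negative, with a median of −0.06 that was 0.14 with the covariate. Of 22 genes of the tricarboxylic acid cycle, Suclg2, Dld, Sdhd and Idh3a were lower by 0.64 to 0.37 (18.2%) and Pcx, which fills the cycle, was higher by 0.55 (4.55%). Leaving out 1 array left 1 to 4 of these lower. Among 43 translation factors and tRNA synthetases, 6 were lower (14.0%), led by the cap-binding Eif4e at 10.03, 9.92 and 10.19 in FC soleus and 10.86, 10.73 and 10.84 in BG soleus (−0.76 ± 0.16, adjusted p = 0.0059), and Eif2b2 was higher by 0.52 (2.33%). Leaving out 1 array left 2 to 5 of the translation genes lower. Lysosome and autophagy genes were divided, with 4 of 38 higher (Grn, Npc2, Mcoln1 and Tfeb, the last named after its value was seen) and 6 lower, led by the proton pump subunit Atp6v1h (−1.002) and Laptm4a (−0.78). These are 10.5% higher and 15.8% lower. Leaving out 1 array left 2 to 3 higher and 2 to 5 lower.

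Calls depended on which probe set of a gene was read. Read on any probe set, 86 genes were called higher and 192 lower, 275 in all, in place of 77. Of the 200 probe sets called lower that name 1 gene, 164 were not that gene's brightest, and the brightest was also lower in 131 of these but past the adjusted p in 37. Of the 96 called higher, 55 were not the brightest, with the brightest also higher in 34 and past the adjusted p in 7. Gdi2, which recycles Rab proteins, is an example: its dimmest probe set stood at 5.29, 5.59 and 6.31 in FC soleus and 8.61, 7.70 and 7.86 in BG soleus (−2.32), and its brightest at 10.76, 10.87 and 11.06 in FC soleus and 11.03, 11.09 and 11.05 in BG soleus (−0.16). The RNA-binding genes Fubp1 and Sfpq disagreed in sign, with 1.70 and 1.56 on a dimmer probe set and −0.63 and −0.74 on the brightest, as did the poly(A) polymerase Papola, with 1.31 and −0.92. Rbbp4, a histone chaperone, gave −1.90 on its dimmest and 0.26 on its brightest. Where on each transcript these probe sets lie was not analysed here.

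The same 2 housing groups in EDL, measured on other arrays, gave few calls. In EDL, 2 genes were called higher (0.0161%) and 1 lower (0.00807%) in FC, and leaving out 1 EDL array gave 0 to 11 calls. Of the 77 genes called in soleus, 66 had the same sign in EDL, 40 of the 41 higher and 26 of the 36 lower. At an unadjusted p of 0.05 in EDL, which 5.74% of all genes passed as higher and 5.33% as lower, 19 of the 41 were higher and 10 of the 36 lower, and none passed in the opposite direction. If soleus and EDL with the same number came from 1 animal, these signs are not independent of each other. The share of same signs over all genes was not counted. FC EDL also had a higher mean 3′ minus 5′ difference than BG EDL for Gapdh (0.187 and 0.151), Actb (0.219 and −0.012) and Pcx (2.745 and 2.052), while the Tfrc values overlapped. The part of this difference in the signs was not tested. Over 2-fold at an unadjusted p of 0.05 in EDL were 25 of all genes on the higher side (0.202%) and 27 on the lower (0.218%). Among the genes called in soleus these were Dbp (1.87 in soleus and 1.22 in EDL), Mid1ip1 (1.53 and 1.55), Scara3 (1.39 and 1.04), Acot2 (−1.16 and −1.21) and Tnfrsf12a (−1.51 and −1.75). The test of the difference between muscles called no gene at the adjusted p on the brightest probe sets (limma, with 1976 genes at an unadjusted p of 0.05, and with 2 genes past the adjusted p at any fold when the variance was not moderated), so that no gene above was shown to differ between soleus and EDL. Across all 12393 genes, which are not independent replicates, the soleus and EDL differences had an r of 0.207.

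**Figure D5:**
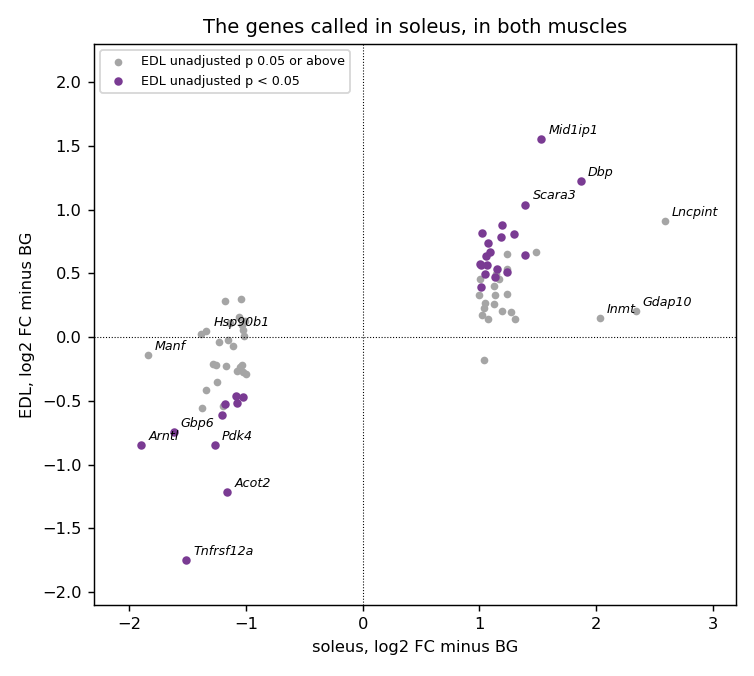
Log2 difference FC minus BG in soleus (x axis) and in EDL (y axis) for the 77 genes called in soleus, coloured by the unadjusted p in EDL. Of the 41 higher genes 40 lie above 0 in EDL, and the 5 genes over 2-fold in both muscles are Dbp, Mid1ip1, Scara3, Acot2 and Tnfrsf12a.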

How the data were processed

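RNA of 3 FC and 3 BG soleus muscles was compared within a set of 18 arrays (3 BF, 3 FC and 3 BG arrays of each of soleus and EDL). The authors imported the array scans into Partek, where RMA corrected the background, normalised probes by quantiles over all arrays and summarised each probe set, and deposited the result as log2 signals. The table held 22690 probe sets with no missing value, from 2.11 to 14.53, and the 64 control probe sets were left out of the tests. Probe sets were named by the platform annotation with symbols updated through RefSeq: 20380 name 1 gene, 691 several and 1606 none. Each of 12393 genes was read on the probe set with the highest mean signal over all arrays.

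limma 3.58.1 in R 4.3.3 fitted 6 group means to the 18 arrays (12 residual and 5.1 prior degrees of freedom), and p-values were adjusted by Benjamini-Hochberg over all 22626 probe sets. Errors of differences are the standard errors of this fit. An exact permutation of 3 arrays against 3 cannot go below p = 0.1, so none was used. On simulated data with the spread of these arrays, 94% of changes of 2.5-fold were called. The simulated noise was independent between probe sets and held no difference in RNA quality between the groups. The 94% therefore does not cover the 3′ minus 5′ difference of the FC soleus arrays. The number of arrays, 3 a group, limits the precision. Nothing says how the 3 muscles of a group were drawn beyond their numbers. The p-values rest on a spread within groups that is pooled over all 18 arrays, BF and EDL among them, and moderated across probe sets.

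Named genes were the 15 highest and 15 lowest called genes whose FC and BG arrays do not overlap, the key genes of 41 lists, up to 8 members of each list past the adjusted p, called genes also over 2-fold in EDL, and 5 genes whose probe sets disagree. Members of the lists (1270 entries, 1125 of them measured) and all rules were chosen with earlier results of these data known. Same-numbered FC and BG arrays had correlations of their deviations of 0.174, −0.0491 and 0.242 in soleus, and arrays of unlike number −0.242 to 0.074. In EDL the same-numbered values were 0.147, 0.156 and 0.0732, and the others −0.245 to 0.124. The labels do not say that the numbers pair the samples, and the main fit did not pair them. The alternatives were other sets of arrays, no or another moderation, a replicate block, array weights, median centring, quantile normalisation of the 6 arrays, a filter on low signals, the 3′ minus 5′ covariate, other rules for probe sets and folds, and leaving out each array. Promoter windows came from RefSeq (GRCm38.p6).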

Additional observations from a re-analysis of the deposited data

Results flagged for a closer look

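The control probe sets of Gapdh and Actb, which no comparison of genes uses, had a 3′ minus 5′ difference in the FC soleus arrays above that of the BG soleus arrays. The 3′ minus 5′ difference averaged 0.68 for Gapdh in FC soleus, against 0.065 in BG soleus, and 0.54 for Actb in FC soleus, against −0.019 in BG soleus. In EDL the same difference was 0.187 for Gapdh and 0.219 for Actb in FC, against 0.151 and −0.012 in BG. The Pcx control pair averaged 2.745 in FC EDL and 2.052 in BG EDL, and 2.314 in FC soleus and 1.699 in BG soleus.

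Over all probe sets, 1 passed the adjusted p for a difference between the muscles in FC minus BG. It reads Myh7 and Myh6 together, and FC minus BG was −2.20 in soleus and 0.05 in EDL, a difference of −2.25. A brighter probe set of the same pair gave 0.10 in soleus and Myh7 alone 0.16. On the probe set that passed, BF soleus had 3.87, 4.65 and 4.48, and BF minus BG was −2.03 (limma, adjusted p = 1.3e-06). The 3′ minus 5′ difference averaged 0.189 for Gapdh and 0.10 for Actb in BF soleus. The part of that difference in FC minus BG of this probe set was not tested beyond the covariate, under which no probe set passed in soleus.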

How the results depend on the processing

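The count of 77 genes called lay between 58 and 105 under other sets of arrays, other moderation, array weights, centring, quantile normalisation of the 6 arrays, a filter on low signals and the mean of a gene's probe sets. It was 592 at a 1.5-fold threshold, 1215 with no fold threshold and 275 on any probe set. Leaving out 1 array gave 45 to 87 genes and 213 to 384 probe sets, the lowest without FC array 2. With the 3′ minus 5′ covariate no gene and no probe set was called (0 and 0, with 470 genes at an unadjusted p of 0.05). The fit with the replicate block called 79 genes and 337 probe sets, and moved no count of soleus calls by over 1.5 times. In EDL, 3 genes were called, 0 without moderation, with the block and with the covariate, 29 with array weights, and 0 to 11 when 1 array was left out. The difference between muscles called 0 genes, 111 with array weights, 5 after centring on array medians, and 0 to 78 when 1 array was left out, the most without BG EDL array 1.

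Of the 109 genes named in the text that passed the adjusted p, 42 passed whichever 1 of the 6 arrays was left out, and none turned its sign outside the covariate fit. Under the covariate, in which no gene passed, 39 turned. The log2 differences there were −1.58 for Lncpint, −1.19 for Gdap10, −1.15 for Dgkz, −1.13 for Dbp, −0.70 for Per3, −0.60 for Notch3, −0.49 for Phxr4, −0.48 for Mcoln1, −0.30 for Hoxc8, −0.28 for Tfeb, −0.15 for Atp5d and Pcx, −0.12 for Hlf, −0.11 for Capn1, −0.076 for Fasn, −0.062 for Per2, −0.060 for Col6a1, −0.034 for Rsad2 and −0.0087 for Grn. They were 0.79 for Epm2a, 0.44 for Fdps, 0.43 for Psmd10, 0.35 for Ola1, Psmg2 and Tomm22, 0.32 for Echs1, 0.20 for Timm17a, 0.15 for Suclg2, 0.12 for Sdhd, 0.11 for Psmd7, 0.10 for Ercc8 and Tnfrsf12a, 0.079 for Emcn and Fkbp4, 0.077 for Net1, 0.075 for Etfa, 0.051 for Psmd6, 0.010 for Ndufab1 and 0.0031 for Timm10. The cause of these turns was not tested, and the covariate and the FC soleus group cannot be told apart.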
